A study of Mus musculus with 12 samples.

Results

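The genes described here are 39 mouse genes of the B cell receptor and the B cell surface, listed by symbol: 2 receptor signalling subunits, 2 coreceptors, 4 kinases, 3 adaptors, 10 effectors, 6 inhibitory receptors or enzymes and 12 other surface or B-lineage genes. They were listed by name, with earlier results of these data known. All 39 were found among the 26305 genes with an identifier in the count table. Messenger RNA was profiled in EMRK1184luc cells, a B lymphoma line from a female Eµ-Myc mouse that carries a luciferase gene introduced with a lentivirus. There were 4 groups of 3 libraries: 5 µM WM-1119 for 3 days, the vehicle DMSO for 3 days, 5 µM WM-1119 for 6 days and DMSO for 6 days. WM-1119 inhibits KAT6A and KAT6B, a pair of histone acetyltransferases. All 4 groups share the Eµ-Myc transgene, in which the immunoglobulin heavy chain enhancer drives Myc, and the luciferase gene, and all come from 1 tumour line, so the values describe that line. The replicates are called biological, but no culture or day is given for them, and p-values here reflect only how far samples within a group, as prepared, lie apart.

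The B cell receptor is a membrane immunoglobulin paired with the CD79A and CD79B subunits, whose cytoplasmic tails carry tyrosine motifs. On antigen binding, Src-family kinases such as LYN and BLK phosphorylate these motifs and SYK docks on them. SYK and BTK then act through the adaptor BLNK on phospholipase C gamma 2, which produces a calcium signal, while phosphoinositide 3-kinase generates membrane phosphoinositides. Inhibitory receptors such as CD22, CD72 and FCGR2B recruit the phosphatases SHP-1 and SHIP-1, which limit the signal. In Eµ-Myc lymphomas the transgene is active in B-lineage cells, and tumours range from precursor to more mature B cells.

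Library totals were 18266488 to 28136250 counts with WM-1119 and 17863138 to 21638773 with DMSO at 3 days, and 14691369 to 17509662 with WM-1119 and 22749501 to 41607926 with DMSO at 6 days. Of 10 B cell identity markers 9 were high enough to test, and their summed level was 4049 to 4151 CPM (counts scaled by library size to a common total) with WM-1119 and 3959 to 4076 CPM with DMSO at 3 days, and 3934 to 4053 CPM with WM-1119 and 3887 to 4070 CPM with DMSO at 6 days. The remaining one was Ms4a1, with 1 count in all. The T cell genes Cd3e, Cd3d, Cd4 and Cd8a and the myeloid genes C1qa, S100a8 and S100a9 had 0 counts in all 12 libraries. The sum of 12 T and NK cell markers, of which only Cd2 and Klrb1c were high enough to test and Cd2 made up most of the level, was 74.6 to 81.2 CPM with WM-1119 and 55.9 to 60.4 CPM with DMSO at 3 days, and 83.4 to 92.9 CPM with WM-1119 and 56.9 to 63.1 CPM with DMSO at 6 days. Of 12 myeloid markers only Csf1r and Itgam were tested, and the sum, mostly Itgam, was 105 to 110.5 CPM with WM-1119 and 112 to 120.1 CPM with DMSO at 3 days, and 122.6 to 127.7 CPM with WM-1119 and 113 to 116 CPM with DMSO at 6 days. Within these lists the tested genes went separate ways. Cd2 was higher with WM-1119 (log2 fold changes 0.55 and 0.57 at 3 and 6 days) and Klrb1c lower (-1.79 and -0.83). Csf1r was higher, at 4.66 CPM with WM-1119 and 1.04 CPM with DMSO at 3 days and 4.14 CPM with WM-1119 and 0.835 CPM with DMSO at 6 days (edgeR adjusted p = 1.11e-07 and 3.09e-08), while Itgam was lower at 3 days (-0.14) and not called at 6 days (0.10). The part of these 2 lists in the results was not tested. Fibroblast transcripts were uneven among the 6-day libraries: the sum of 12 fibroblast markers was 1.02 to 43.2 CPM with WM-1119 and 1.54 to 19.1 CPM with DMSO at 6 days, against 2.10 to 6.11 CPM with WM-1119 and 1.87 to 3.76 CPM with DMSO at 3 days. Col1a1, a fibroblast collagen gene, exceeded 1 CPM in 5 libraries, which were replicate 2 of WM-1119 at 3 days and replicates 1 and 2 of both treatments at 6 days. In such bulk libraries fewer cells of a type and less RNA per cell cannot be told apart.

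In the cultures themselves the genes spanned a wide range of levels per length. With DMSO at 3 days the order, in CPM per kilobase of gene length, began with Cd24a at 1273, which encodes the heat-stable antigen, Cd79a at 492, the tetraspanin gene Cd37 at 311 and Cd79b at 239. Blnk (219), Cd72 (201), Dok3 (190.2) and Btk (102 CPM per kilobase) followed. The low end held Ly86 at 6.28, Ly6d at 3.77, Prkcb at 1.74 and Cr2 at 0.172 CPM per kilobase. With WM-1119 at 3 days, Ly86 stood at 9.22 and Ly6d at 15.6 on this scale, so the pair changed places. A group of 3 genes was too low to test. Ms4a1, which encodes CD20, had 0 counts over the 3 WM-1119 libraries and 0 over the 3 DMSO libraries of 3 days, and 1 count with WM-1119 and 0 with DMSO at 6 days. Fcer2a, the gene of the IgE receptor CD23, had 3 counts with WM-1119 and 3 with DMSO at 3 days, and 1 with WM-1119 and 7 with DMSO at 6 days. Rasgrp3, an activator of Ras, was at 0 in all groups but DMSO at 6 days, where it had 4 counts. A count of 0 allows at most 3 counts over a group, which is 0.0460 CPM with WM-1119 and 0.0498 CPM with DMSO at 3 days, and 0.0614 CPM with WM-1119 and 0.0335 CPM with DMSO at 6 days, for counting error alone.

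**Figure D1:**
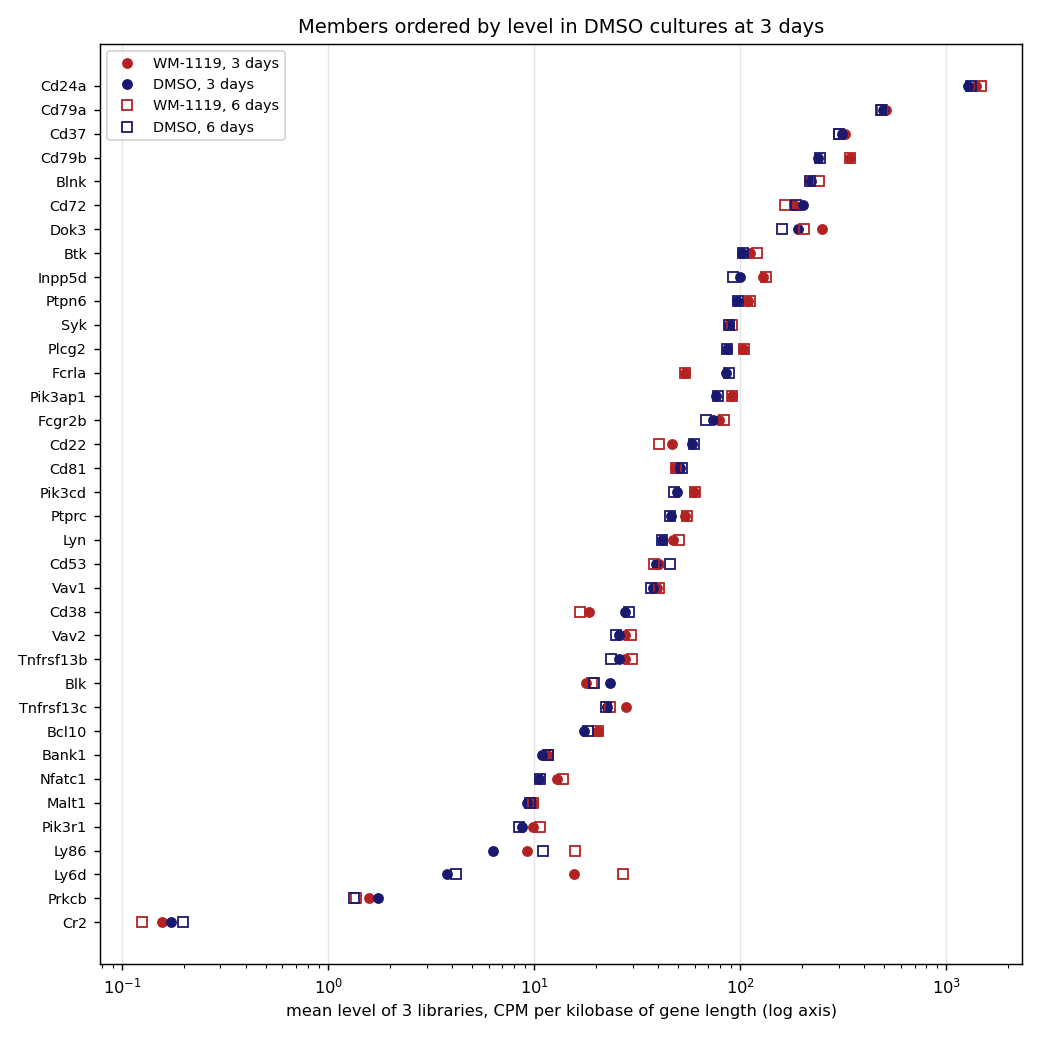
Mean level of the 36 tested genes in CPM per kilobase of gene length (horizontal log axis) in the 4 groups of 3 libraries, ordered from the highest to the lowest level with DMSO at 3 days. Cd24a and Cd79a lead the order, Prkcb and Cr2 close it, and the 4 points of most genes lie close together, with Ly6d, Ly86, Cd38 and Fcrla spread the most widely.

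More of the genes were higher than lower with WM-1119, at both times. Of the 36 tested genes, 20 passed the test at 3 days (edgeR's quasi-likelihood test, Benjamini-Hochberg adjusted p under 0.05 over all genes), 16 higher (44.4%) and 4 lower (11.1%). Over all 11997 genes tested, 24.4% passed at 3 days, 11.8% higher and 12.7% lower. At 6 days 24 of the 36 passed, 20 higher (55.6%) and 4 lower (11.1%), against 30.8% of all genes, 15.7% higher and 15.1% lower. The share of higher genes was thus above the background at both times and the share of lower ones was near or below it. The background was not matched to the 36 genes for level, on which passing the test also depends. At 3 days the median size of the log2 fold change was 0.175 over the 36 genes and 0.128 over all genes. At 6 days it was 0.249 and 0.144. The median log2 fold change over the 36 genes was 0.10 at 3 days and 0.15 at 6 days, against 0.0016 and -0.0037 over all genes tested. The changes were small: the called genes rose by a median of 1.20-fold (range 1.09 to 4.13) at 3 days and 1.22-fold (1.10 to 6.41) at 6 days, and those called lower fell by a median of 1.40-fold (1.24 to 1.58) and 1.56-fold (1.14 to 1.74). Only Ly6d among them rose over 2-fold, at both times, as did 1.25% of all genes at 3 days and 1.78% at 6 days. The WM-1119 libraries did not overlap the DMSO libraries for 24 genes at 3 days (18 above, 6 below) and 27 at 6 days (21 above, 6 below), against 39.9% and 41.3% of all genes.

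**Figure D2:**
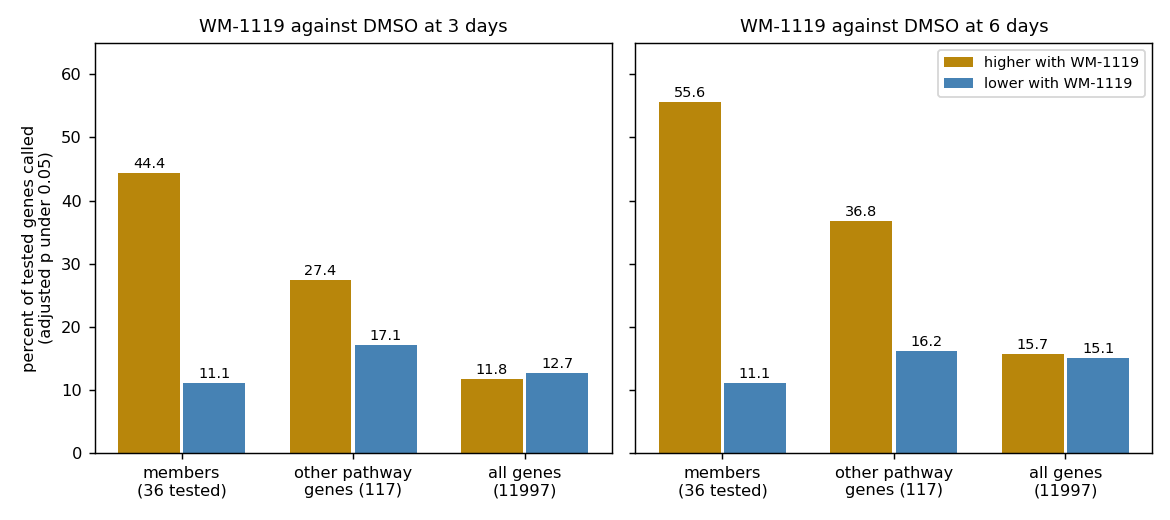
Percent of tested genes that passed the test (vertical axis from 0) with higher or lower levels with WM-1119, for the 36 genes described here, 117 other genes of the pathway and all 11997 genes, at 3 days (left) and 6 days (right). The bars for higher levels are at 44.4% and 55.6% for the 36 genes, against 11.8% and 15.7% for all genes.

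Most genes called at 3 days were called at 6 days too. A total of 14 genes were higher at both times and 3 lower at both (Cd22, Cd38 and Fcrla). Lyn, Blnk, Vav1, Vav2, Fcgr2b and Tnfrsf13b passed as higher at 6 days alone, and Cd72 as lower. Bcl10 and Tnfrsf13c passed as higher at 3 days alone, and Blk as lower. The remaining 9 passed at neither time: Cd79a, Cr2, Cd81, Syk, Bank1, Prkcb, Malt1, Cd37 and Cd53. Passing at 1 time alone does not show a difference between times, which was tested for itself as described further on. Without the 5 libraries with over 1 CPM of Col1a1, which leaves 1 library of each treatment at 6 days with its spread taken from the 3-day groups, 17 of the 20 genes remained called at 3 days and 13 of the 24 at 6 days; over all 12185 genes tested in that fit 18.8% were called at 3 days and 12.4% at 6 days, against 24.4% and 30.8% of all genes with every library. All 20 and all 24 kept their direction. The 3 lost at 3 days were Btk (adjusted p = 0.0529), Pik3r1 (0.153) and Cd24a (0.0535). The 11 lost at 6 days were Lyn, Btk, Blnk, Pik3ap1, Vav1, Vav2, Cd72, Ptpn6, Cd24a, Ly86 and Tnfrsf13b, with adjusted p of 0.125 to 0.737. The log2 fold change shrank by over 1.5 times for 3 of these 11, which were Btk (0.14, against 0.22 with all libraries), Cd72 (-0.10, against -0.19) and Cd24a (0.05, against 0.15). For the other 8 it was 0.72 to 1.10 times that with all libraries, as with Blnk (0.17, against 0.16) and Vav2 (0.23 in both). Omitting single libraries in turn cost the genes 56 calls over the 5 comparisons. Wherever a call was lost in this way, the log2 fold change was 0.74 to 1.12 times that with all libraries.

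**Figure D3:**
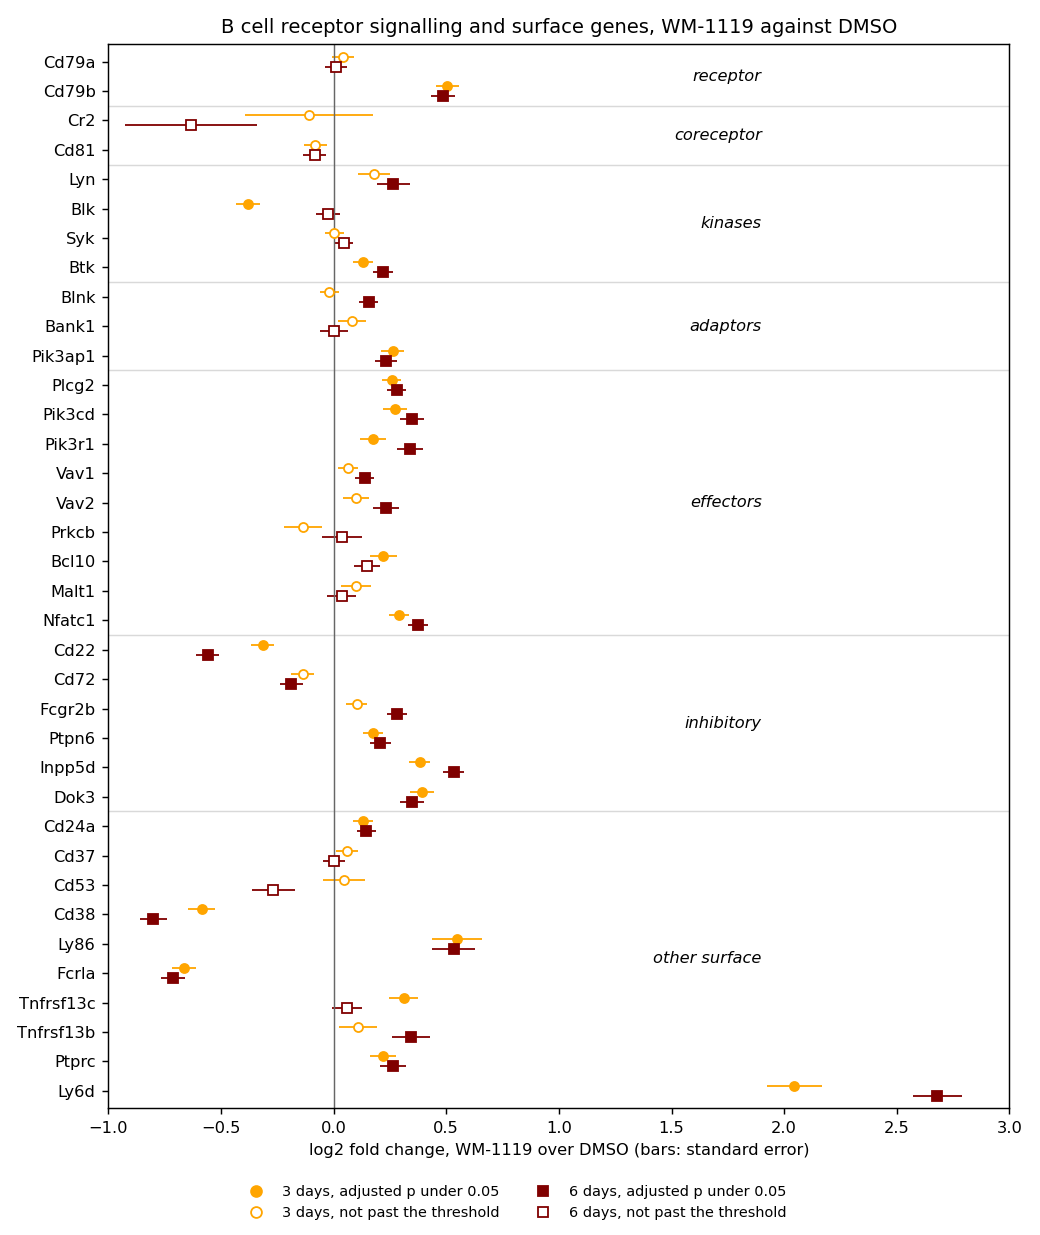
Log2 fold change of WM-1119 over DMSO (horizontal axis) for each of the 36 tested genes, grouped by role, at 3 days (circles) and 6 days (squares). Bars are standard errors and filled symbols passed the test; Ly6d lies farthest to the right, Cd38 and Fcrla lie far to the left, and the effectors that passed all lie right of 0.

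Of the 2 signalling subunits of the receptor, Cd79b rose at both times and Cd79a passed at neither. Cd79b (chr11:106311341-106314562, mm10) had 433, 381 and 406 CPM in the 3 WM-1119 libraries of 3 days, against 268, 282 and 309 CPM in the DMSO libraries. For Cd79b at 6 days the values were 392, 418 and 411 CPM with WM-1119 and 287, 294 and 292 CPM with DMSO. Every WM-1119 library lay above every DMSO library at both times. Its log2 fold changes were 0.51 ± 0.05 (SE; adjusted p = 2.45e-07) at 3 days and 0.48 ± 0.05 (adjusted p = 2.46e-07) at 6 days. Cd79a (chr7:24897497-24901858), the partner subunit, had 661, 652 and 702 CPM with WM-1119 and 643, 659 and 657 CPM with DMSO at 3 days. The values of Cd79a at 6 days were 630.1, 695 and 615 CPM with WM-1119 and 646, 670.2 and 609.8 CPM with DMSO, and the groups overlapped at both times. Its log2 fold changes were 0.04 ± 0.05 (adjusted p = 0.595), and 0.01 ± 0.05 (adjusted p = 0.887). Since the proteins pair, their ratio was also taken per length. The level of Cd79b over that of Cd79a was 0.726, 0.647 and 0.640 in the WM-1119 libraries of 3 days, against 0.462, 0.475 and 0.521 in the DMSO libraries of 3 days. At 6 days it was 0.689, 0.667 and 0.739 in the WM-1119 libraries, against 0.492, 0.486 and 0.531 in the DMSO libraries. All 6 WM-1119 libraries had a higher ratio than all 6 DMSO libraries. The coreceptor genes did not pass: Cd81, a tetraspanin, had log2 fold changes of -0.08 ± 0.05 (adjusted p = 0.262) at 3 days and -0.08 ± 0.05 (adjusted p = 0.212) at 6 days. Cr2, the complement receptor CD21, was low, at 0.969 ± 0.0939 CPM with WM-1119 and 1.07 ± 0.216 CPM with DMSO at 3 days, and 0.772 ± 0.161 CPM with WM-1119 and 1.22 ± 0.288 CPM with DMSO at 6 days (SD, n = 3 each; edgeR adjusted p = 0.823 and 0.109).

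Of the 4 kinases, Btk passed as higher at both times, Lyn as higher and Blk as lower at 1 time each, and Syk at neither. Blk (chr14:63372837-63417187), a Src-family kinase gene largely specific to B cells, passed as lower at 3 days alone. It had 46.2, 44.1 and 42.4 CPM with WM-1119, against 56.3, 57.5 and 59.0 CPM with DMSO at 3 days. Blk at 6 days stood at 48.0, 47.3 and 46.7 CPM with WM-1119 and 46.3, 49.5 and 48.9 CPM with DMSO. The 3-day groups did not overlap and the 6-day groups did. The log2 fold changes of Blk were -0.38 ± 0.05 (adjusted p = 1.70e-05) at 3 days and -0.02 ± 0.05 (adjusted p = 0.775) at 6 days. Lyn (chr4:3678068-3791612), the Src-family kinase that phosphorylates activating and inhibitory receptors alike, had 174, 153 and 164 CPM with WM-1119 and 134, 133 and 166 CPM with DMSO at 3 days. For Lyn at 6 days the values were 177, 169.8 and 172 CPM with WM-1119 and 145, 138 and 148 CPM with DMSO. DMSO replicate 3 of 3 days lay among the WM-1119 libraries, while at 6 days the groups did not overlap. Lyn rose at 6 days (0.27 ± 0.07, adjusted p = 0.0110) and had 0.18 ± 0.07 (adjusted p = 0.0889) at 3 days. The 3-day value passed without DMSO replicate 3 (0.000651, log2 fold change 0.29), and the 6-day call was lost without DMSO replicate 2 (0.0510).

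Syk (chr13:52582610-52648792), the kinase that docks on the phosphorylated subunits, had 458, 471 and 464 CPM with WM-1119 and 450.4, 486 and 455 CPM with DMSO at 3 days. At 6 days Syk was at 463, 480.1 and 499.6 CPM with WM-1119 and 467, 467 and 466 CPM with DMSO. The groups overlapped at both times, with log2 fold changes of 0.003 ± 0.04 (adjusted p = 0.973), and 0.04 ± 0.04 (adjusted p = 0.467). Btk (chrX:134542334-134583628), which acts on phospholipase C gamma 2, had 290.4, 276 and 280.2 CPM with WM-1119 and 258, 262 and 254 CPM with DMSO at 3 days. Btk at 6 days was at 296, 316 and 300.4 CPM with WM-1119 and 251, 259 and 273 CPM with DMSO. All WM-1119 libraries lay above all DMSO libraries at both times. The rise of Btk was 0.22 ± 0.04 on the log2 scale at 6 days (adjusted p = 0.000491) and 0.13 ± 0.04 at 3 days (adjusted p = 0.0355). The 3-day call of Btk was lost without any 1 of 5 libraries, WM-1119 replicate 1 or 3 or any of the DMSO replicates of 3 days (adjusted p = 0.0649 to 0.117).

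Of the 3 adaptors, Pik3ap1 was higher at both times and Blnk at 6 days. Blnk (chr19:40928927-40994221), the scaffold on which BTK meets phospholipase C gamma 2, had 449, 466 and 446 CPM with WM-1119 and 456, 482 and 442 CPM with DMSO at 3 days. Blnk at 6 days had 492, 518 and 512 CPM with WM-1119 and 449, 464 and 454 CPM with DMSO. Only the 6-day groups were free of overlap, with log2 fold changes of -0.02 ± 0.04 (adjusted p = 0.801) at 3 days and 0.16 ± 0.04 (adjusted p = 0.00725) at 6 days. Without WM-1119 replicate 2 of 6 days the adjusted p of Blnk was 0.0502. Pik3ap1, also called BCAP, which recruits phosphoinositide 3-kinase, rose by 0.26 ± 0.05 (adjusted p = 0.000453) at 3 days and 0.23 ± 0.05 (adjusted p = 0.00105) at 6 days. Its neighbour on chromosome 19 among the listed genes is Blnk, at a gap of 278.3 kb. Bank1, a scaffold that binds LYN, had log2 fold changes of 0.08 ± 0.06 (adjusted p = 0.383), and 0.003 ± 0.06 (adjusted p = 0.980).

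None of the 9 tested effectors passed as lower. As higher, 5 passed at 3 days and 6 at 6 days, with median log2 fold changes of 0.17 and 0.23 over the 9. Plcg2 (chr8:117498275-117635142), which encodes phospholipase C gamma 2, had 429, 457 and 442 CPM with WM-1119 and 357, 385 and 369 CPM with DMSO at 3 days. Plcg2 at 6 days had 442, 447 and 454 CPM with WM-1119 and 360.0, 381 and 366 CPM with DMSO. The groups did not overlap at either time, and the log2 fold changes were 0.26 ± 0.04 (adjusted p = 9.49e-05) and 0.28 ± 0.04 (adjusted p = 2.52e-05). Nfatc1, a transcription factor gene of the calcium branch, had 96.3, 96.0 and 95.8 CPM with WM-1119 and 79.9, 76.4 and 79.2 CPM with DMSO at 3 days. For Nfatc1 at 6 days the values were 104, 104 and 99.7 CPM with WM-1119 and 78.0, 80.0 and 79.5 CPM with DMSO. Again no library of 1 treatment reached the range of the other, and the log2 fold changes were 0.29 ± 0.04 (adjusted p = 4.16e-05) and 0.37 ± 0.04 (adjusted p = 1.02e-06). The phosphoinositide 3-kinase genes rose as well. Pik3cd, the catalytic delta subunit, rose by 0.27 ± 0.05 (adjusted p = 0.000678) at 3 days and 0.35 ± 0.05 (adjusted p = 3.24e-05) at 6 days. Pik3r1, the regulatory subunit, rose by 0.17 ± 0.06 (adjusted p = 0.0296) and 0.34 ± 0.06 (adjusted p = 8.68e-05); its 3-day call was lost without any 1 of WM-1119 replicates 2 and 3 and DMSO replicates 1 and 2 of 3 days (adjusted p = 0.0744 to 0.149).

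The exchange factor genes Vav1 and Vav2 passed at 6 days alone, with log2 fold changes of 0.14 ± 0.04 (adjusted p = 0.0209) and 0.23 ± 0.06 (adjusted p = 0.00354). At 3 days Vav1 had 0.06 ± 0.04 (adjusted p = 0.331) and Vav2 0.10 ± 0.06 (adjusted p = 0.239). The 6-day call of Vav1 was lost without WM-1119 replicate 2 or 3 or DMSO replicate 1 of 6 days (0.0581 to 0.108), and Vav2 passed at 3 days without DMSO replicate 2 (0.0419). In the arm that leads to NF-kappa B, 1 of 3 tested genes passed, at 3 days. Bcl10 rose at 3 days (0.22 ± 0.06, adjusted p = 0.00853; 0.0542 without DMSO replicate 2) and had 0.15 ± 0.06 (adjusted p = 0.0605) at 6 days. Malt1, the protease partner of BCL10, had 0.10 ± 0.07 (adjusted p = 0.294), and 0.04 ± 0.07 (adjusted p = 0.729). Prkcb, the protein kinase C isoform upstream of them, had -0.14 ± 0.08 (adjusted p = 0.269), and 0.04 ± 0.09 (adjusted p = 0.784).

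Of the 6 inhibitory genes, 3 passed as higher with 1 lower after 3 days of WM-1119, while after 6 days all 6 passed, 4 as higher. The lectin-type receptor genes Cd22 (both times) and Cd72 (6 days) were lower. The Fc receptor gene Fcgr2b (6 days), the phosphatase genes Inpp5d and Ptpn6 and the adaptor gene Dok3 (both times) were higher. Cd22 (chr7:30865404-30880342), a sialic acid-binding receptor that damps the signal, had 198, 204 and 204 CPM with WM-1119 and 252, 253 and 247 CPM with DMSO at 3 days. Cd22 at 6 days had 171, 174 and 176 CPM with WM-1119 and 265, 272 and 231 CPM with DMSO. Every WM-1119 library lay below every DMSO library at both times, and the log2 fold changes were -0.31 ± 0.05 (adjusted p = 7.39e-05) and -0.56 ± 0.05 (adjusted p = 1.98e-08). Inpp5d (chr1:87620312-87720510), which encodes the inositol phosphatase SHIP-1, had 624, 639 and 649.7 CPM with WM-1119 and 463, 477 and 527 CPM with DMSO at 3 days. For Inpp5d at 6 days the values were 658, 636 and 678 CPM with WM-1119 and 458, 460.2 and 444 CPM with DMSO. The groups were apart at both times, with log2 fold changes of 0.38 ± 0.05 (adjusted p = 2.05e-06) and 0.53 ± 0.05 (adjusted p = 9.95e-09). Dok3 (chr13:55523231-55530345), an adaptor that brings SHIP-1 to the receptor, had 397, 378 and 381 CPM with WM-1119 and 274, 298 and 311 CPM with DMSO at 3 days. Dok3 at 6 days had 312, 306 and 326 CPM with WM-1119 and 253, 262 and 227 CPM with DMSO. The WM-1119 libraries lay above the DMSO libraries within each time, and the log2 fold changes were 0.39 ± 0.05 (adjusted p = 1.02e-05) and 0.35 ± 0.05 (adjusted p = 3.17e-05).

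The tyrosine phosphatase gene Ptpn6, which encodes SHP-1, rose by 0.18 ± 0.05 (adjusted p = 0.00715) at 3 days and 0.21 ± 0.05 (adjusted p = 0.00136) at 6 days. Fcgr2b, the inhibitory Fc receptor gene, rose at 6 days (0.28 ± 0.04, adjusted p = 4.18e-05) and had 0.10 ± 0.04 (adjusted p = 0.107) at 3 days, where it passed without DMSO replicate 3 (0.0339). Cd72 fell at 6 days (-0.19 ± 0.05, adjusted p = 0.00729; 0.0585 without DMSO replicate 1 of that time). At 3 days Cd72 had -0.14 ± 0.05 (adjusted p = 0.0540), and it passed there without WM-1119 replicate 1 of 3 days (0.0196), WM-1119 replicate 2 of 6 days (0.0484) or DMSO replicate 1 (0.0423) or 3 (0.0256) of 6 days. Its annotated span overlaps that of Tesk1, and the sources used here do not give the strand setting of the counting.

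Among the other surface and B-lineage genes, 5 passed as higher and 2 as lower at each time, of 10 tested. Ly6d (chr15:74762056-74763567), a surface antigen of early B-lineage progenitors, had the largest fold change of the 36 tested genes. It had 9.84, 11.0 and 11.6 CPM with WM-1119 and 2.79, 2.70 and 2.33 CPM with DMSO at 3 days. Ly6d at 6 days had 18.1, 19.0 and 18.4 CPM with WM-1119 and 2.83, 2.97 and 2.88 CPM with DMSO. The DMSO libraries stayed under 3 CPM at both times, and each WM-1119 library of 6 days lay above each of 3 days. The log2 fold changes were 2.05 ± 0.12 (adjusted p = 5.37e-11) and 2.68 ± 0.11 (adjusted p = 8.66e-14). Ly86 (chr13:37345345-37419036), also called MD-1, the soluble partner of the receptor CD180, had 8.65, 8.90 and 10.0 CPM with WM-1119 and 6.64, 6.18 and 5.96 CPM with DMSO at 3 days. Ly86 at 6 days had 15.7, 15.6 and 15.9 CPM with WM-1119 and 9.93, 10.7 and 12.2 CPM with DMSO. Both treatments were higher at 6 days than at 3 days, and within each time all WM-1119 libraries lay above all DMSO libraries. Its log2 fold changes were 0.55 ± 0.11 (adjusted p = 0.000754) and 0.53 ± 0.10 (adjusted p = 0.000189). Replicate 3, the one with under 1 CPM of Col1a1 in both 6-day groups, had 15.9 CPM of Ly86 with WM-1119 and 12.2 CPM with DMSO.

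Cd38 and Fcrla were the genes that fell most. Cd38 (chr5:43868809-43912374), an ectoenzyme that degrades NAD, had 55.7, 56.8 and 53.0 CPM with WM-1119 and 86.8, 85.0 and 76.3 CPM with DMSO at 3 days. Cd38 at 6 days had 50.7, 48.8 and 49.7 CPM with WM-1119 and 93.2, 82.7 and 83.7 CPM with DMSO. The highest WM-1119 library was well below the lowest DMSO library at both times, and the log2 fold changes were -0.59 ± 0.06 (adjusted p = 1.87e-07) and -0.80 ± 0.06 (adjusted p = 1.06e-09). Fcrla (chr1:170917594-170932216), an intracellular Fc receptor-like protein gene of B cells, had 102, 89.2 and 87.5 CPM with WM-1119 and 149, 149 and 143 CPM with DMSO at 3 days. For Fcrla at 6 days the values were 90.4, 93.0 and 95.3 CPM with WM-1119 and 147, 150.1 and 159.7 CPM with DMSO. The groups were apart at both times, with log2 fold changes of -0.66 ± 0.05 (adjusted p = 5.74e-09) and -0.71 ± 0.05 (adjusted p = 1.08e-09). On chromosome 1 Fcrla lies 28.3 kb from Fcgr2b, the closest pair among the listed genes, and at 6 days Fcrla fell while Fcgr2b rose.

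The receptors for the survival factor BAFF and its relative APRIL passed at different times. Tnfrsf13c, the BAFF receptor gene, rose at 3 days (0.31 ± 0.06, adjusted p = 0.000942) and had 0.06 ± 0.07 (adjusted p = 0.527) at 6 days. Tnfrsf13b, the gene of TACI, had 0.11 ± 0.08 (adjusted p = 0.391) at 3 days and rose at 6 days (0.34 ± 0.08, adjusted p = 0.00337); its span overlaps that of Usp22. Ptprc, the gene of the phosphatase CD45, rose at both times (0.22 ± 0.06, adjusted p = 0.00603, 0.0573 without DMSO replicate 2 of 3 days; 0.26 ± 0.06, adjusted p = 0.000963). Cd24a, the most abundant of the genes, had 2529 ± 98.1 CPM with WM-1119 and 2312 ± 70.8 CPM with DMSO at 3 days, and 2657 ± 35.0 CPM with WM-1119 and 2401 ± 131 CPM with DMSO at 6 days (SD, n = 3 each). Its rises of 0.13 ± 0.04 (adjusted p = 0.0355) and 0.15 ± 0.04 (adjusted p = 0.0146) by edgeR's test were close to the threshold. The 3-day call was lost without any 1 of 5 libraries, WM-1119 replicate 1 or 2 or any DMSO replicate (adjusted p = 0.0532 to 0.185, with log2 fold changes of 0.10 to 0.14), and the 6-day call without WM-1119 replicate 2 or DMSO replicate 1 or 2 (adjusted p = 0.0637 to 0.0818, with 0.12 to 0.13). Cd24a has processed copies in the mouse genome, and the sources used here do not say how multi-mapping reads were counted.

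The tetraspanin genes Cd37 and Cd53 did not pass, though Cd53 lay at the threshold at 6 days. Cd37 had log2 fold changes of 0.06 ± 0.05 (adjusted p = 0.428), and 0.001 ± 0.05 (adjusted p = 0.989). Cd53 had 0.05 ± 0.09 (adjusted p = 0.778) at 3 days and -0.27 ± 0.09 (adjusted p = 0.0507) at 6 days. With the replicate number as a block in the 6-day libraries alone, where same-numbered libraries deviated together, Cd53 passed (log2 fold change -0.26, adjusted p = 0.000125). At 6 days Cd53 passed as lower in 12 of 23 alternatives, among them DESeq2 (0.00837), voom (0.0469), RLE scaling (0.0457), the filter at 1 CPM (0.0479), the fit of only the groups compared (0.00414), thinning (0.0449) and 4 fits without 1 library. Those 4 left out WM-1119 replicate 2 of 3 days (0.0427), DMSO replicate 2 (0.0143) or 3 (0.00973) of 3 days, or DMSO replicate 2 of 6 days (0.0361). Its log2 fold change lay between -0.33 and -0.20 over all 23, and it did not pass without the 5 libraries with Col1a1 (-0.24, adjusted p = 0.370).

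**Figure D4:**
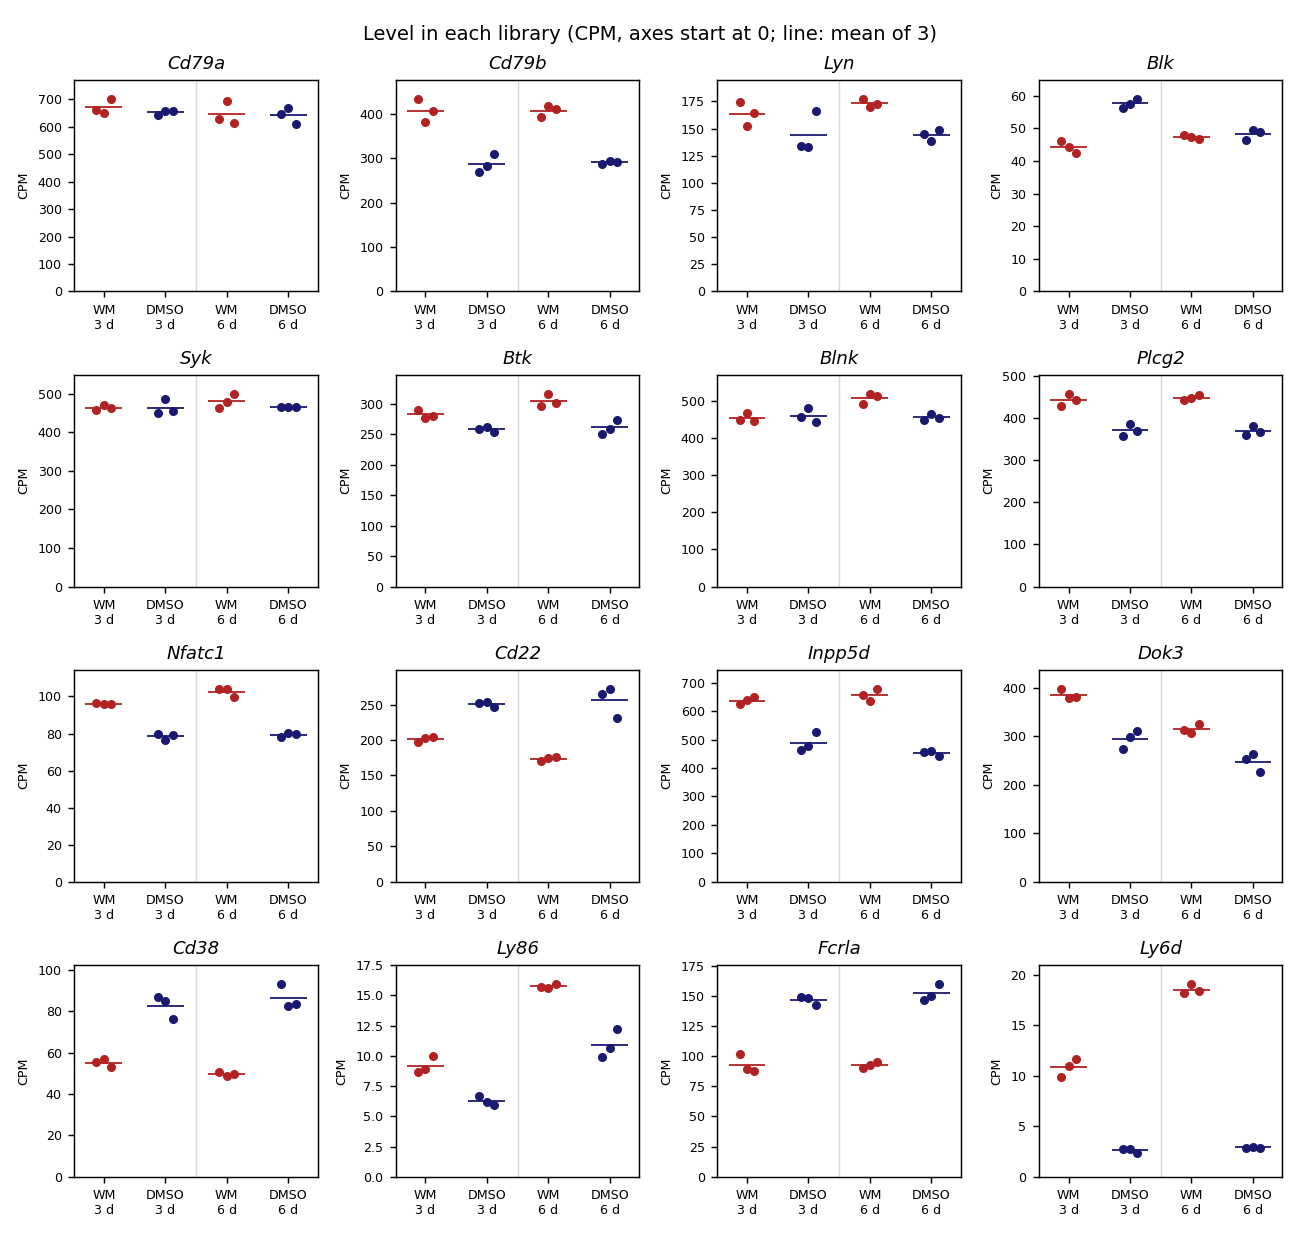
Level in each of the 12 libraries (vertical axes in CPM, starting at 0) of 16 genes, with WM-1119 left of DMSO at 3 days and then at 6 days; points are libraries and lines the means of 3. The points of Cd79b, Plcg2, Nfatc1, Inpp5d and Ly6d lie higher with WM-1119, those of Cd22, Cd38 and Fcrla lower, and those of Cd79a and Syk overlap.

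The DNA just upstream of genes that moved at both times is given next, so that the letters can be seen beside the values. RefSeq promoter entries (build GRCm38.p6, the same assembly as mm10) existed for 31 of the 39 genes. Those printed belong to genes described above with their values per library that passed at both times. Their entries lie outside the annotated span of the gene. Other genes may meet these conditions too, so the printed windows are a selection. Each shows the 250 bases before the annotated start, 5′ to 3′ on the gene's strand, with capitals marking matches to any of 5 motifs named for B cell factors or MYC. Plcg2, which rose, is at chr8:117498025-117498274 (+ strand).
Plcg2: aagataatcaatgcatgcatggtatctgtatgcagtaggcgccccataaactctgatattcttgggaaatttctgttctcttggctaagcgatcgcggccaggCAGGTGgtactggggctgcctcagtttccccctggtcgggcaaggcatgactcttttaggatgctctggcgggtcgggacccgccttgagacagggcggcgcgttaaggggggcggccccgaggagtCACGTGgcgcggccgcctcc
Inpp5d, the SHIP-1 gene, which rose, is at chr1:87620062-87620311 (+ strand).
Inpp5d: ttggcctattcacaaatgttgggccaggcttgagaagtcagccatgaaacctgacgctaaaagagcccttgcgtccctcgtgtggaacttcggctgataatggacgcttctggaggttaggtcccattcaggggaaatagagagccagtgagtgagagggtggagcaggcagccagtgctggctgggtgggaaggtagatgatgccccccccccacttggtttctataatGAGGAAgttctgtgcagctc
Ly86, which rose, is at chr13:37345095-37345344 (+ strand).
Ly86: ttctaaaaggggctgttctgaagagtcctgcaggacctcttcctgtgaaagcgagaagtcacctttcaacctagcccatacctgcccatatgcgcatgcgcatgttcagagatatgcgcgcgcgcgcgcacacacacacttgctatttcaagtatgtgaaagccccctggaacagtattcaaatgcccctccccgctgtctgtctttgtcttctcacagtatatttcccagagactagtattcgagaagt
Cd38, which fell, is at chr5:43868559-43868808 (+ strand).
Cd38: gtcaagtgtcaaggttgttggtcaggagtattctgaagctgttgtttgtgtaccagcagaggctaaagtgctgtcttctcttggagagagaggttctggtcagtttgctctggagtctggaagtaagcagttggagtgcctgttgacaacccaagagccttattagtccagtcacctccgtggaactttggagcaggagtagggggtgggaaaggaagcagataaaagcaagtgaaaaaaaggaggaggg
The motifs searched, on both strands, were CCCNNGGG (EBF1 core), ATTTGCAT (octamer), CAGGTG (E2A-type E-box), GAGGAA (PU.1-type ETS core) and CACGTG (MYC-type E-box), none of which contains another. Counting from -1 at the base before the start, Plcg2 had CAGGTG at -147 to -142 and CACGTG at -20 to -15. Inpp5d had GAGGAA at -20 to -15, and the windows of Ly86 and Cd38 held none of the 5. Over all 32851 windows of this length, 17.2% held CAGGTG, 23.3% GAGGAA, 11.8% CCCNNGGG, 6.02% CACGTG and 1.60% ATTTGCAT. The 31 listed genes with entries had 39 windows, of which 17 (of 15 genes) held CAGGTG and 12 held GAGGAA. CCCNNGGG was in 5 of these windows, CACGTG in 3 and ATTTGCAT in 2. A match is a run of letters and not a measured binding site.

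The difference between the WM-1119 effects at the 2 times was called for 1 of the 36 genes, against 0.725% of all genes (0.4% higher at 6 days). It was Blk, whose effect was higher at 6 days than at 3 days by 0.36 ± 0.08 on the log2 scale (adjusted p = 0.0274). The WM-1119 libraries of Blk were at 47.4 ± 0.644 CPM at 6 days and 44.2 ± 1.89 CPM at 3 days. Each of 6 days lay above each of 3 days, though the change was not called (edgeR log2 fold change 0.10 ± 0.06, adjusted p = 0.307). The DMSO libraries of Blk were lower at 6 days, at 48.2 ± 1.68 CPM, than at 3 days, at 57.6 ± 1.32 CPM (SD, n = 3 each; DMSO at 6 against 3 days, edgeR log2 fold change -0.26 ± 0.05, adjusted p = 0.0194). The call of the difference was lost without any 1 of 8 libraries, all but WM-1119 replicate 1 and DMSO replicate 2 of 3 days and DMSO replicates 2 and 3 of 6 days (adjusted p = 0.0543 to 0.115, with differences of 0.33 to 0.37), and without the 5 Col1a1-containing libraries (0.31, adjusted p = 0.909). For Cd22 the difference was -0.25 ± 0.07 (adjusted p = 0.189), and it passed without DMSO replicate 3 of 6 days (-0.31, adjusted p = 0.00586) and with no filter on low counts (-0.27, adjusted p = 0.0447). Without the 5 Col1a1-containing libraries it was -0.07 (adjusted p = 0.996). For Ly6d the difference was 0.63 ± 0.17 (adjusted p = 0.123).

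Fewer of the genes passed between times than between treatments, though with every library the share was above that of all genes. With WM-1119, 6 of 36 passed between 6 and 3 days (16.7%), 3 higher and 3 lower at 6 days (8.33% each). Over all genes 5.62% passed, 2.33% higher and 3.29% lower. With upper-quartile scaling 2 of the 36 were higher and 4 lower. Ly6d was higher by 0.78 ± 0.10 (adjusted p = 7.13e-05) and Ly86 by 0.78 ± 0.10 (adjusted p = 0.000108). Dok3 was lower, with a log2 fold change of -0.29 ± 0.05 (adjusted p = 0.00232). Blnk (0.16 ± 0.04, adjusted p = 0.0274), Cd22 (-0.22 ± 0.05, adjusted p = 0.0150) and Tnfrsf13c (-0.27 ± 0.07, adjusted p = 0.0182) also passed. Their calls were lost without any 1 of the 6 WM-1119 libraries for Blnk (0.0512 to 0.132), without replicate 2 or 3 of 3 days or 1 of 6 days for Cd22 (0.0573 to 0.0640), and without replicate 1 of 3 days or 2 of 6 days for Tnfrsf13c (0.0741 to 0.0878). Cd72, which was not called, passed as lower without DMSO replicate 3 of 6 days (-0.15, adjusted p = 0.0372).

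With DMSO, 4 of 36 passed between 6 and 3 days (11.1%), 1 higher (2.78%) and 3 lower (8.33%). Over all genes 0.809% passed, 0.358% higher and 0.45% lower. Ly86 was higher at 6 days by 0.79 ± 0.11 (adjusted p = 0.000643). Blk, Dok3 (-0.25 ± 0.05, adjusted p = 0.0254) and Prkcb (-0.38 ± 0.08, adjusted p = 0.0291) were lower, and each of these 3 calls was lost when certain single libraries were left out. For Blk these were DMSO replicates 1, 2 and 3 of 3 days and 1 of 6 days (0.0566 to 0.0685), for Dok3 replicates 2 and 3 of 3 days and 3 of 6 days (0.110 to 0.127), and for Prkcb replicates 1, 2 and 3 of 3 days and 1 and 2 of 6 days (0.0566 to 0.115). Ly6d had 0.14 ± 0.14 (adjusted p = 0.746) with DMSO. Time in DMSO and time with WM-1119 are separate sets of libraries, and Ly86 and Dok3 passed in the same direction in both.

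**Figure D5:**
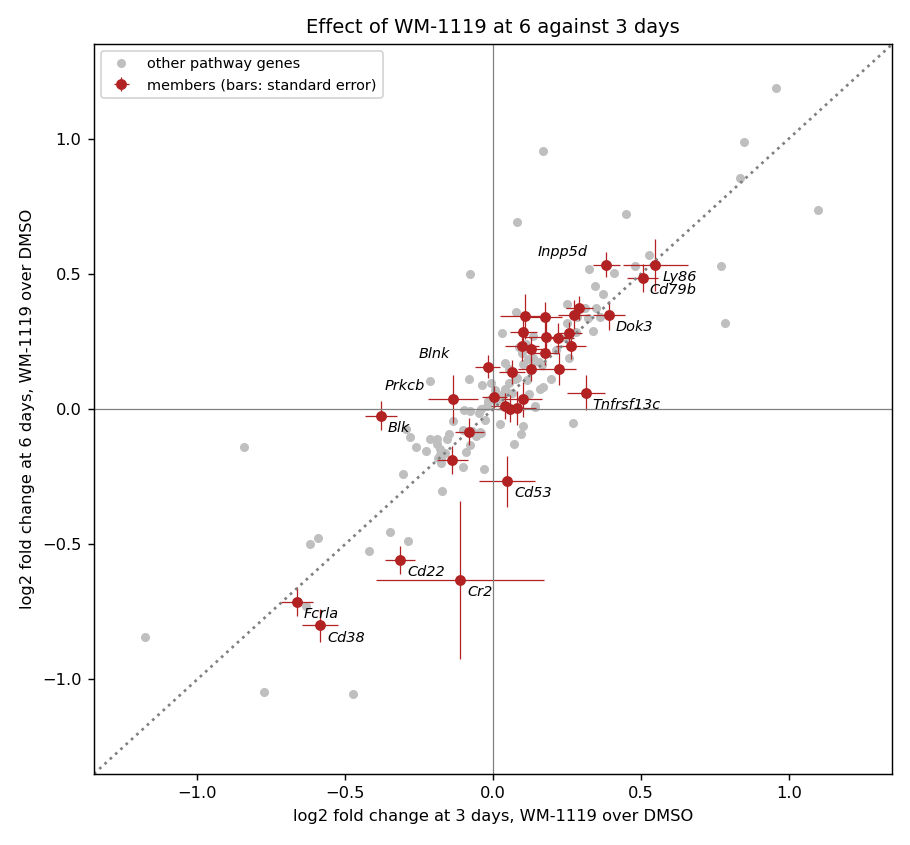
Log2 fold change of WM-1119 over DMSO at 6 days (vertical axis) against that at 3 days (horizontal axis) for 35 of the 36 tested genes (bars are standard errors) and 113 of 117 other genes of the pathway (grey), with the line of equality dotted. Ly6d, at 2.05 and 2.68, and 4 of the grey genes lie outside the axes; most points lie near the line, and Blk lies above it.

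Beyond the 39 genes, a list of 136 other genes of the pathway (immunoglobulin genes, small GTPases, lipid kinases and phosphatases, calcium channels and the kinases and factors further along) held 117 tested genes. Of these 52 passed at 3 days, 32 higher (27.4%) and 20 lower (17.1%), against 11.8% and 12.7% of all genes tested. At 6 days 62 passed, 43 higher (36.8%) and 19 lower (16.2%), against 15.7% and 15.1%, so that the share of lower genes was near the background. The genes with the smallest p among the higher ones were the same 4 at both times. Rasgrp2, an exchange factor for Rap GTPases, had 177 ± 3.25 CPM with WM-1119 and 98.3 ± 2.63 CPM with DMSO at 3 days, and 171 ± 2.55 CPM with WM-1119 and 85.9 ± 5.60 CPM with DMSO at 6 days (SD, n = 3 each; edgeR adjusted p = 2.72e-11 and 1.35e-12). Pik3cg, the gamma catalytic subunit of phosphoinositide 3-kinase, rose by 0.41 ± 0.05 and 0.50 ± 0.05 on the log2 scale at 3 and 6 days. The calcium channel gene Orai2 rose by 0.48 ± 0.06 and 0.53 ± 0.06, and Plekha1, which encodes a phosphoinositide-binding protein, by 0.96 ± 0.11 and 1.19 ± 0.11. On the lower side, the Src-family kinase gene Fyn had 25.8 ± 1.00 CPM with WM-1119 and 44.1 ± 1.36 CPM with DMSO at 3 days, and 21.0 ± 1.37 CPM with WM-1119 and 43.3 ± 0.250 CPM with DMSO at 6 days (log2 fold changes -0.77 ± 0.06 and -1.05 ± 0.06). Inppl1, which encodes SHIP-2, the close relative of SHIP-1, fell while Inpp5d rose, with log2 fold changes of -0.35 ± 0.04 and -0.45 ± 0.04 and levels of 618 ± 14.8 CPM with WM-1119 and 788 ± 22.6 CPM with DMSO at 3 days. The protein kinase C gene Prkca fell by 0.63 ± 0.09 and 0.73 ± 0.09.

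Among the 4 lower genes with the smallest p, Ighd, which encodes the IgD heavy chain, belonged at 3 days (-0.42 ± 0.07, adjusted p = 4.97e-05), and Swap70, which binds phosphoinositides in B cells, at 6 days (-0.49 ± 0.06, adjusted p = 2.52e-06). No gene of this list was called for the difference between times, against 0.725% of all genes. Of the transcription factors that set B cell identity, Pax5 had log2 fold changes of -0.47 and -0.58 and Ebf1 of -0.37 and -0.29 at 3 and 6 days, all past the test, though Ebf1 did not pass at 6 days without the 5 libraries with Col1a1 (adjusted p = 0.0835).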

How the data were processed

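RNA was isolated on RNeasy columns and poly(A)-selected libraries were made with the TruSeq Stranded mRNA LT kit, per the labels' protocols. The authors deposited raw read counts per gene for 12 libraries, 3 in each of 4 groups, and applied no normalization to them. Per the submitters' processing notes, featureCounts and the build mm10 were used; the sources used here do not give a version, the aligner or the strand and multi-mapping settings, which bear most on genes with close copies or overlapping neighbours. Of 27179 entries, 874 had no gene identifier and held 0.305% to 0.362% of a library's counts; they were left out. Symbols were found for 25275 of 26305 identifiers in the RefSeq annotation of that build.

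Counts were scaled with TMM factors and filtered with filterByExpr by group, which left 11997 genes. A quasi-likelihood fit with 4 group means and a robust prior was made over all 12 libraries (edgeR 4.0.16 in R 4.3.3). Contrasts were WM-1119 against DMSO at each time, the difference of those effects, and 6 against 3 days within each treatment. P-values are two-sided and adjusted by Benjamini-Hochberg over all genes tested, and called under 0.05; with 3 libraries against 3, an exact permutation test could reach no p under 0.1. Errors given after ± for log2 fold changes are standard errors (SE). CPM are counts over the TMM-scaled library total. CPM per kilobase divides by the gene length in the deposited table. Intervals and limits from counts cover counting error only. The test was checked on simulated counts with known changes.

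The 39 genes, the pathway and marker lists, the tests and the alternatives were chosen with earlier results of these data known. By the rule for named genes, every listed gene is accounted for. Values per library are given for 8 core genes (Cd79a, Cd79b, Lyn, Blk, Syk, Btk, Blnk, Plcg2), the 8 called genes with the largest change at each time and at least 1 CPM, and any gene called for the difference. Of the other pathway genes, the 4 higher and 4 lower ones with the smallest p at each time are named; certain others that the rule names are not reported here. Whether replicate numbers pair the samples was checked from the correlation of deviations from group means over genes. Same-numbered libraries of WM-1119 and DMSO correlated at -0.024 to 0.053 at 3 days and at 0.191 to 0.209 at 6 days. WM-1119 replicate 3 of 3 days and DMSO replicate 2 of 6 days, of different number and day, reached 0.213. Such values therefore cannot settle whether libraries are paired. The 6-day numbers were taken as pairs in a block fit, and this rests on the data, since the labels do not describe it. In all, 23 alternatives were run. They comprised scaling by upper quartile or RLE, testing unfiltered genes or those at 1 CPM or more in 3 libraries, DESeq2 1.42.0, voom with limma 3.58.1, a fit restricted to the groups compared, a term for the replicate number, and the omission of each of the 12 libraries in turn. A further 3 were chosen after seeing the data: without the 5 libraries over 1 CPM of Col1a1, all libraries thinned to 14691369 counts, and a block in the 6-day libraries alone.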

Additional observations from a re-analysis of the deposited data

Results flagged for a closer look

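The effect of WM-1119 on Blk, a Src-family kinase gene, differed between 6 and 3 days by 0.3554 on the log2 scale (edgeR's test of the difference itself, adjusted p = 0.0274). It was picked out because the same contrast gave different effects at the 2 times. The WM-1119 libraries of Blk lay between 46.7 and 48.0 CPM at 6 days and between 42.4 and 46.2 CPM at 3 days. The DMSO libraries lay between 46.3 and 49.5 CPM at 6 days and between 56.3 and 59.0 CPM at 3 days. Without any 1 of 8 libraries the call was lost (adjusted p = 0.0543 to 0.115), while the difference itself was 0.325 to 0.371. Without the 5 libraries with over 1 CPM of the fibroblast gene Col1a1 it was 0.309 on the log2 scale (adjusted p = 0.909), in a fit with 1 library of each treatment at 6 days.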

How the results depend on the processing

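Over the 23 alternatives no called value of the 36 tested genes changed direction. The number called stayed within 1.5 times at 3 days (16 to 21 when 1 library was left out) and, save for 1 setting, at 6 days (21 to 25). Of the genes called, 15 of 20 at 3 days and 13 of 24 at 6 days passed in every alternative. The setting apart was the fit without the 5 libraries over 1 CPM of Col1a1, which leaves 1 library of each treatment at 6 days. In that fit fewer of the genes passed at 6 days, for the difference between times and between times within each treatment. Fewer of the other pathway genes passed at 6 days too. Over all genes, more passed between 6 and 3 days with DMSO in that fit, and fewer in the other comparisons. Whether the genes exceeded all genes between times was not tested there. For the difference between times, 2 genes passed with no filter on low counts, and 0 to 2 when 1 library was left out. Between 6 and 3 days with DMSO, 1 gene passed when only the groups compared were fitted, and 1 to 4 when 1 library was left out. With WM-1119 that range was 4 to 7. For the other pathway genes it was 39 to 57 at 3 days and 50 to 62 at 6 days.

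With the replicate number as a block, 22 of the 36 genes passed at 3 days (17 higher, 5 lower) and 25 at 6 days (20 and 5), also in the 6-day libraries alone. Over all 11997 genes the block raised the number passing as well, from 2932 to 3157 at 3 days and from 3693 to 3904 at 6 days. In the 6-day libraries alone 4352 of 11729 genes passed. Among the 36 genes the 6-day pairing changed no call but that of Cd53. At 3 days, where same-numbered libraries hardly correlated, Lyn (edgeR adjusted p = 0.0332) and Cd72 (0.0401) passed with the block. A fit of only the groups compared was not run for the difference between times, which already uses all 4. Depth limits the genes near 1 CPM, such as Cr2, and those not tested.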
